A study of Homo sapiens with 6 samples.

Results

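Tubulins and actins build the main filaments of the cell skeleton. Alpha- and beta-tubulin pair into the dimers that assemble into microtubules, which form the mitotic spindle and the tracks for transport, and actin monomers assemble into the filaments of the cell cortex, of junctions and, in intestinal epithelium, of microvilli. Both proteins are encoded by families of closely related genes, and free tubulin is known to trigger the decay of tubulin mRNA on ribosomes. The 10 genes described here were taken by symbol from the 58302 genes of the deposited expression table, and all 10 were found. They comprise 3 alpha-tubulin genes (TUBA1A, TUBA1B and TUBA1C), 5 beta-tubulin genes (TUBB, TUBB2A, TUBB3, TUBB4B and TUBB6) and 2 cytoplasmic actin genes (ACTB and ACTG1).

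The study used SW480 and DLD-1, established human colorectal cancer (CRC) cell lines whose genotype is given as WT and that received no treatment. The study describes both lines as p53 mutant, so WT is not read here as wild type at every gene. For each line, total RNA (Input), RNA pulled down with NAT10 antibody (RIP-seq) and RNA pulled down with ac4C antibody (acRIP-seq) were sequenced, 1 library each. NAT10 is the acetyltransferase that writes N4-acetylcytidine (ac4C) on RNA, so RIP-seq asks which transcripts are bound by the enzyme and acRIP-seq asks where the mark lies. Since no group was replicated, every difference below compares libraries, no test was made, and each error covers counting only.

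Levels are FPKM values, fragments scaled to transcript length and library size, which allow genes of different length to be compared within a column. The RIP table gave RIP and Input columns for both lines, and a second table, deposited with acRIP-seq, gave another Input column for each line. The FPKM values of the RIP table fell on whole-read steps, from which at least 26245762 and 21773924 reads were recovered in the SW480 and DLD-1 RIP libraries, and 11931422 and 11178713 in their Inputs. Log levels over 16196 genes in the RIP library with the SW480 label followed the DLD-1 Input (r = 0.944) more closely than the SW480 Input (r = 0.871). In the RIP library with the DLD-1 label they followed the SW480 Input (r = 0.951) more closely than the DLD-1 Input (r = 0.856). KRT20, an intestinal keratin, was at 29.2 FPKM in the Input labelled SW480 and 0 in the RIP library of that label, and at 0.0426 and 23.9 in those labelled DLD-1. For this reason RIP ratios of members and of listed genes are given over the Input of the same label and also with the Inputs exchanged. The epithelial markers summed to 915 to 3373 FPKM with 8 to 10 of 10 above 0, whereas 4 leukocyte markers summed to at most 0.415, 3 endothelial markers to at most 0.808, 4 fibroblast markers to at most 2.21 and 4 neuron markers to at most 2.47. CD3E and MYOD1, defining markers of T cells and of skeletal muscle, were at 0 throughout. The 4 muscle markers summed to 2.97 to 6.61 FPKM in 5 columns and to 18.3 in the RIP library labelled SW480, of which ACTA2, another actin gene, made up 16.5.

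ACTB and ACTG1 stood above the tubulins in each column of both tables. ACTB, which encodes beta-actin (chr7:5527148-5530601, minus strand, GRCh38), measured 1321 FPKM in the Input labelled SW480 and 1237 in the Input labelled DLD-1, ranking 15 and 14 among protein-coding genes. In the RIP libraries it measured 909.9 and 989.6 FPKM, and 804 and 697 in the acRIP-table Inputs. ACTG1, which encodes gamma-actin (chr17:81509971-81512799, minus strand), measured 757 and 534 FPKM in the Inputs of SW480 and DLD-1, 503 and 783 in the RIP libraries, and 507 and 353 in the acRIP-table Inputs. ACTB was therefore above ACTG1 in all 6 columns, and the ratio of ACTG1 to ACTB ranged from 0.432 in the Input labelled DLD-1 to 0.792 in the RIP library of that label.

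Among the beta-tubulins, TUBB and TUBB4B carried most of the signal. TUBB (chr6:30720352-30725422, plus strand) measured 231 FPKM in the Input labelled SW480 and 130.1 in the Input labelled DLD-1, 199.9 and 374 in the RIP libraries, and 257 and 133 in the acRIP-table Inputs. TUBB4B (chr9:137241287-137243707, plus strand) measured 209 and 77.4 FPKM in the Inputs, 123 and 311 in the RIP libraries, and 166 and 51.3 in the acRIP-table Inputs. Both were higher in the Inputs labelled SW480 than in those labelled DLD-1, and lower in the RIP library labelled SW480. TUBB made up 48.3 to 62.0% of the summed beta-tubulin FPKM, and TUBB4B 24.0 to 43.7%.

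The remaining beta-tubulins were lower. TUBB6 (chr18:12307669-12329826, plus strand) measured 29.6 and 36.4 FPKM in the Inputs of SW480 and DLD-1, 38.1 and 21.3 in the RIP libraries, and 17.6 and 16.1 in the acRIP-table Inputs. TUBB2A (chr6:3153666-3157544, minus strand), a beta-tubulin abundant in neurons, measured 7.51 and 18.1 FPKM in the Inputs, 15.6 and 5.43 in the RIP libraries, and 5.05 and 13.3 in the acRIP-table Inputs. TUBB3 (chr16:89921925-89936097, plus strand), known as a marker of neurons, lay between 0.417 and 1.91 FPKM in the 6 columns, with 36 to 65 reads in each library of the RIP table. TUBB3 was the lowest of the 10 genes in the Input labelled DLD-1 and in both RIP libraries, and at 36 to 65 reads its order between libraries is loosely fixed.

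Among the alpha-tubulins, TUBA1A and TUBA1B differed more between columns than any other member. TUBA1B (chr12:49127782-49131395, minus strand), a broadly expressed alpha-tubulin, measured only 18.6 and 13.3 FPKM in the RIP-table Inputs of SW480 and DLD-1, but 85.3 and 54.0 in the acRIP-table Inputs and 176 and 327 in the RIP libraries. TUBA1C (chr12:49227926-49274600, plus strand) measured 50.1 and 47.2 FPKM in the RIP-table Inputs, 38.2 and 27.8 in the acRIP-table Inputs, and 119 and 167 in the RIP libraries. TUBA1A (chr12:49184795-49189080, minus strand), the alpha-tubulin prominent in developing neurons, measured 1.36 FPKM in the Input labelled SW480 and 17.3 in the Input labelled DLD-1, but 28.0 and 1.51 in the RIP libraries of those labels. In the acRIP table TUBA1A measured 0.186 FPKM in the Input labelled SW480, which corresponds to about 3.92 reads, and 11.0 in the Input labelled DLD-1. The order of the alpha-tubulins thus depended on the table, with TUBA1C highest in the RIP-table Inputs (71.5 and 60.8% of the alpha sum) and TUBA1B highest in the acRIP-table Inputs (69.0 and 58.2%).

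**Figure D1:**
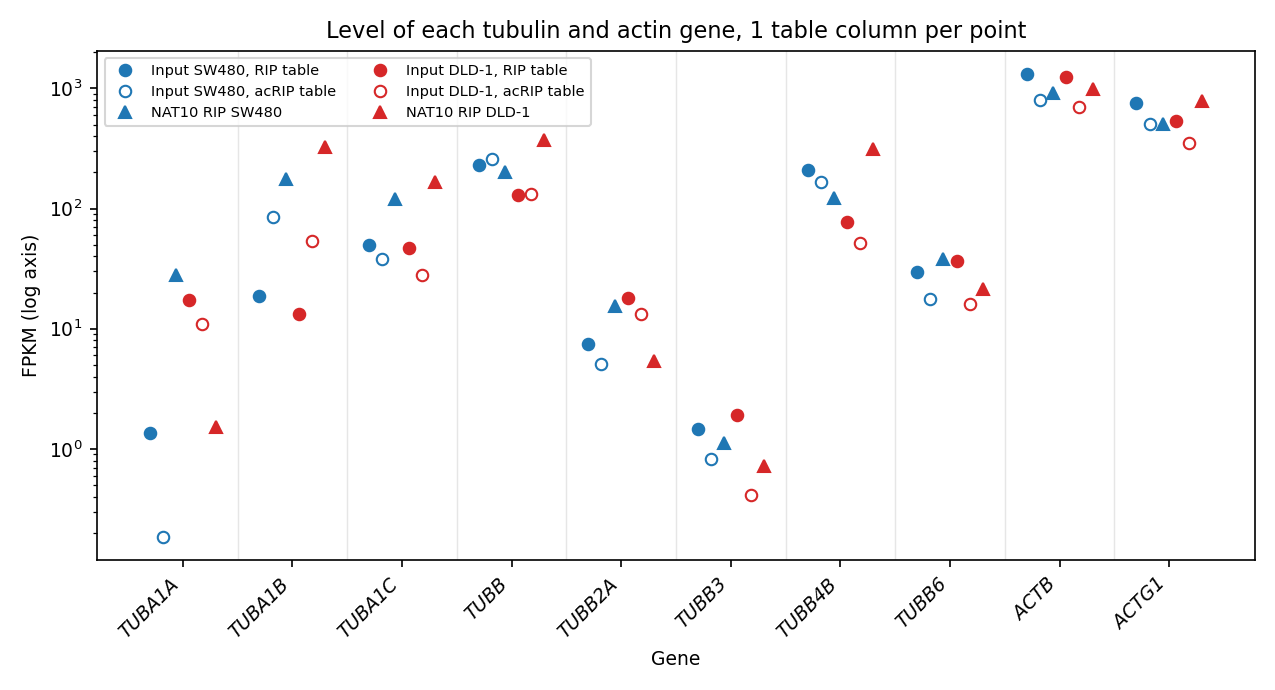
FPKM (log axis) of each of the 10 genes in the Input and NAT10 RIP columns of SW480 (blue) and DLD-1 (red); filled circles are Inputs of the RIP table, open circles Inputs of the acRIP table and triangles RIP libraries. ACTB and ACTG1 lie between 353 and 1321, TUBB3 stays at or below 1.91, and the TUBA1A triangles lie opposite to the TUBA1A circles.

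TUBA1B was the member whose Input differed most between the tables in the upward direction. After the acRIP-table Inputs were multiplied by 1.47 (SW480) and 1.53 (DLD-1) so that the median over tested genes matched, TUBA1B was 6.75-fold and 6.22-fold higher there than in the RIP table. The other 9 members ranged from 0.202-fold (TUBA1A) to 1.64-fold (TUBB) in SW480, and from 0.333-fold (TUBB3) to 1.56-fold (TUBB) in DLD-1. Both Inputs of the RIP table, with 870 and 572 TUBA1B reads, therefore place this gene lower than either Input of the acRIP table, and the denominator chosen sets the size of its RIP ratio. The tables also differed for antisense genes that overlap members. AC011603.2, antisense to TUBA1B, was at 0 in both RIP-table Inputs and at 292 and 180.1 FPKM in the acRIP table. AC125611.3, antisense to TUBA1C, was at 0.201 and 0 against 62.7 and 50.3 FPKM, and AL662797.1, antisense to TUBB, was at 0 and 0 against 418 and 238 FPKM. Whether either table was counted by strand is not given in the sources used here, so in the acRIP table reads of these members and of their antisense partners cannot be told apart, and the part of this in the TUBA1B gap was not tested.

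Copies of the members elsewhere in the genome were low. Of 68 listed pseudogenes of ACTB, ACTG1 and the TUBA and TUBB families, 12 to 21 were above 0 in a column, and their summed FPKM was 0.257 to 2.35% of that of the members. Summed over the 6 columns, the highest were ACTG1P10, ACTG1P3 and TUBB8P1. ACTG1P10 was at 2.97 and 3.29 FPKM in the RIP-table Inputs and at 0 and 0.0734 in the RIP libraries. ACTG1P3 was at 2.64 and 3.92 FPKM in the Inputs and at 0.182 and 0.178 in the RIP libraries. TUBB8P1 was at 3.95 and 3.46 FPKM in the Inputs and at 0 in both RIP libraries. The highest single value, named after the values were seen, was 8.62 FPKM for TUBB3P2 in the RIP-table Input labelled DLD-1, above the 1.91 of TUBB3 there, and TUBB3P2 was at 0 in the other 5 columns. How reads matching several family members were shared out is not given, so values of near-identical members such as TUBA1A, TUBA1B and TUBA1C are uncertain to that extent.

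The first comparison asked which of these transcripts were higher in the NAT10 RIP libraries than in Input. It used log2((RIP FPKM + 1)/(Input FPKM + 1)), and a gene was counted as over or under Input when this ratio passed 2-fold. None of the 6 libraries was a pull-down with a control antibody. Capture that does not depend on NAT10 therefore cannot be told apart from NAT10 binding in these ratios. All 10 members were among the 12324 genes entered in the comparison, called tested genes below, whose Input reached 1 FPKM in each line. With Inputs of the same label, 3 of 10 members were at least 2-fold over Input in SW480, where 15.6% of all tested genes were, and 4 of 10 were in DLD-1, where 15.1% were. None was at least 2-fold under Input in SW480 (16.0% of tested genes) and 2 were in DLD-1 (19.2%). The member median was 0.07 in SW480 and 0.11 in DLD-1, against 0.05 and -0.05 over all tested genes. With the Inputs exchanged it was 0.34 and 0.07, against 0.02 and -0.0041, and these medians are taken over members that lie on both sides of Input. The members are protein-coding. Of 10350 protein-coding tested genes, 1801 and 1727 were over the Input of the same label in SW480 and DLD-1, and 949 and 1323 under it. The median of these genes was 0.18 and 0.07, and 0.11 and 0.09 with the Inputs exchanged. The 3 members past 2-fold in SW480 over the Input of the same label were the alpha-tubulins. In bulk RNA, fewer cells with a transcript and less of it per cell cannot be told apart.

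TUBA1B and TUBA1C were the members at least 2-fold over either Input of the RIP table in both RIP libraries. TUBA1B lay 3.18 log2 units over Input in SW480 (counting SE 0.0477) and 4.52 in DLD-1 (counting SE 0.0568), and 3.64 and 4.06 when the labels of the Inputs were exchanged. Over the scaled acRIP-table Inputs the same RIP values gave 0.49 and 1.97 with the same label and 1.09 and 1.37 with the other label, so that in SW480 the ratio passed 2-fold or not according to the Input. TUBA1C lay 1.23 and 1.80 over Input with the same label (counting SE 0.047 and 0.0491) and 1.32 and 1.72 with the other label. Over the acRIP-table Inputs TUBA1C gave 1.07 and 1.95, and 1.47 and 1.55 with labels crossed. TUBA1C was thus at least 2-fold over Input in each of the 8 pairings of a RIP library with an Input, which TUBA1B missed once.

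TUBA1A showed the widest split between the lines. It lay 3.62 log2 units over Input in SW480, from 1587 reads against 38, and at -2.86 in DLD-1, from 73 reads against 446. With the Inputs exchanged these values became 0.67 and 0.09, both within 2-fold of Input. The sign of the TUBA1A value in DLD-1 is thus set by which Input is used.

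The beta-tubulins split into opposite pairs. TUBB was at -0.21 in SW480 and 1.52 in DLD-1, and TUBB4B at -0.76 and 1.99. TUBB2A went the other way, at 0.96 and -1.57, as did TUBB6 at 0.35 and -0.75. With the Input of the other label the 4 genes drew together between the lines, to 0.62 and 0.69 for TUBB, 0.66 and 0.57 for TUBB4B, -0.20 and -0.40 for TUBB2A, and 0.06 and -0.46 for TUBB6. TUBB3 was at -0.22 and -0.76 with the same label, and at -0.46 and -0.51 with the other. No beta-tubulin reached 2-fold in either direction over the Input of the other label.

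Both actins stayed close to Input. ACTB was at -0.54 and -0.32 with Inputs of the same label and at -0.44 and -0.42 with the other label, from 37500 to 60524 reads in each library. ACTG1 was at -0.59 and 0.55 with the same label, and at -0.09 and 0.05 with the other. The RIP level of ACTB was thus below both Inputs of the RIP table, by less than 2-fold, and the sign of ACTG1 differed between the lines. ACTB was below the acRIP-table Inputs only after these were scaled, at -0.38 and -0.10 with the same label.

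In all, 6 of 10 members had opposite signs in the 2 lines, where 43.6% of tested genes had. With the Inputs of the other label, 2 members did, and members at least 2-fold over Input numbered 2 in each line (9.24% of tested genes in SW480 and 9.36% in DLD-1), with 0 under it (11.7 and 11.8%). Of the 10350 protein-coding tested genes, 1048 and 1035 were over these Inputs, and only 407 and 467 under them. Over the acRIP-table Inputs, members over Input numbered 2 in SW480 (18.4% of tested genes) and 3 in DLD-1 (17.5%), and members under it 0 (14.3%) and 2 (17.0%). With those Inputs crossed, 2 members were over in SW480 (11.8%) and 2 in DLD-1 (12.1%), and 0 were under in either (10.2 and 10.3%).

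**Figure D2:**
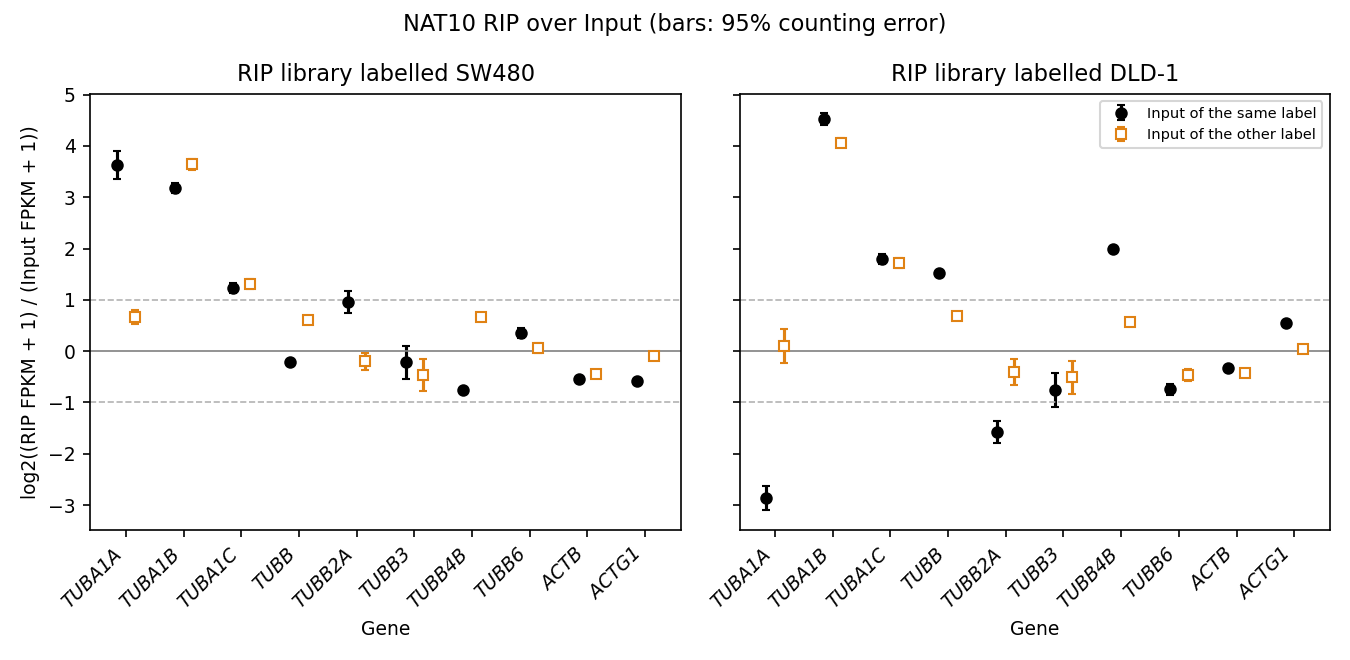
log2 ratio of NAT10 RIP to Input (pseudocount of 1) for the 10 genes in the RIP libraries labelled SW480 (left) and DLD-1 (right), over the Input of the same label (black circles) and of the other label (open squares); bars are 95% counting intervals and dashed lines mark 2-fold. TUBA1B and TUBA1C lie above the upper dashed line with both Inputs, and TUBA1A moves from 3.62 and -2.86 to 0.67 and 0.09.

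The second comparison asked how the lines differed. TUBA1A was 12.7-fold higher in the Input labelled DLD-1 than in that labelled SW480 in the RIP table, with a log2 difference of -2.95 (SW480 minus DLD-1, counting SE 0.149), and 59.0-fold higher in the acRIP table, the latter against about 3.92 reads. TUBB2A was 2.41-fold and 2.64-fold higher in the DLD-1 Inputs. TUBB4B was 2.70-fold and 3.24-fold higher in the SW480 Inputs. At the 2-fold limit on the pseudocount scale, 1 of 10 members was thus higher in SW480 (7.25% of tested genes in the RIP table, 9.52% in the acRIP table) and 2 were lower (9.29 and 9.60%). The other 7 members differed by less than 2-fold between the lines in both tables, among them TUBB at 1.78-fold and 1.94-fold higher in SW480. TUBB3 was 1.31-fold higher in DLD-1 in the RIP table and 1.97-fold higher in SW480 in the acRIP table, from 51 reads or fewer.

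The RIP libraries showed the reverse in each of these genes. TUBA1A was 18.5-fold higher in the RIP library labelled SW480 than in that labelled DLD-1, TUBB2A was 2.87-fold higher there, and TUBB4B was 2.53-fold higher in the one labelled DLD-1. Past the 2-fold limit, 2 members were thus higher in SW480 (7.60% of tested genes) and 1 was lower (6.17%). All 10 members had opposite line differences in the Input and RIP libraries of the RIP table, and so had 74.0% of tested genes. Between the Inputs of both tables the direction was opposite for 2 of 10, TUBB3 and TUBB6, and for 16.8% of tested genes. TUBB6 differed by 1.23-fold and 1.10-fold.

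**Figure D3:**
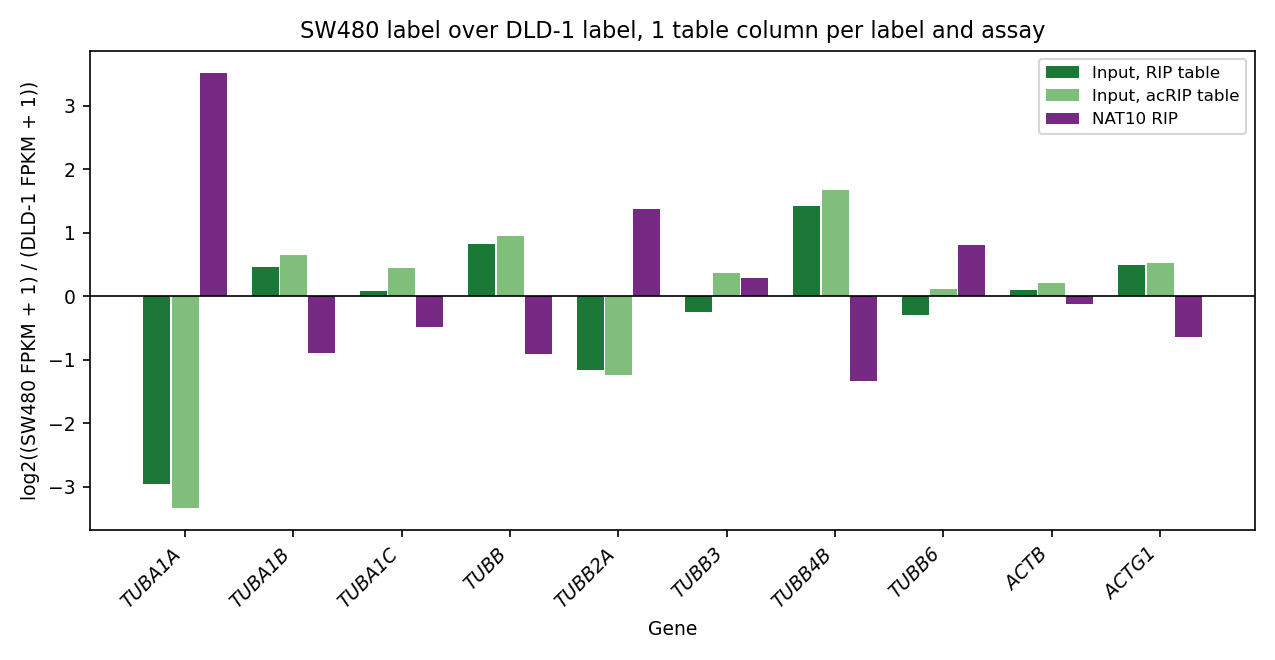
log2 difference of each gene between the SW480 and DLD-1 labels (pseudocount of 1) in the Inputs of the RIP table (dark green), the Inputs of the acRIP table (light green) and the NAT10 RIP libraries (purple). Dark green and purple bars point in opposite directions for all 10 genes, from -2.95 and 3.53 for TUBA1A to 0.09 and -0.12 for ACTB.

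Because alpha- and beta-tubulin assemble in equal numbers, their transcripts were also summed. In the RIP-table Inputs the alpha sum was 70.1 FPKM in SW480 and 77.8 in DLD-1, against beta sums of 479 and 264. In the RIP libraries the alpha sum was 324 and 495 against beta sums of 377 and 712. The ratio of alpha to beta was 0.146 and 0.295 in the RIP-table Inputs, 0.277 and 0.434 in the acRIP-table Inputs, and 0.858 and 0.696 in the RIP libraries. This ratio was thus higher in both RIP libraries than in each of the 4 Input columns, while beta-tubulin stayed above alpha-tubulin in all 6 columns. The sums cover only these 8 genes, and the ratio in the Inputs moves with the level given to TUBA1B.

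**Figure D4:**
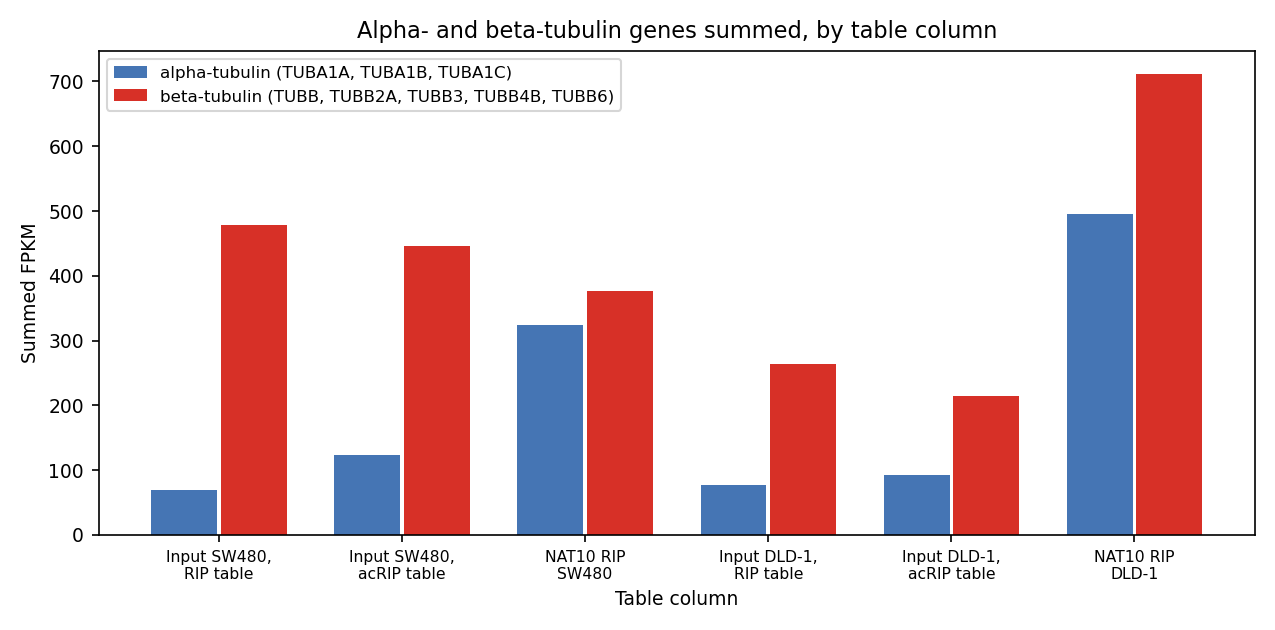
Summed FPKM of the 3 alpha-tubulin genes (blue) and the 5 beta-tubulin genes (red) in each of the 6 columns. The alpha bars lie between 70.1 and 124 in the Inputs and reach 324 and 495 in the RIP libraries.

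The members' ac4C peaks were taken from the lists that the authors called in each acRIP library, where the fold is the enrichment over Input within the peak. The SW480 list held 19 peaks on 9 members, all but TUBB3, and the DLD-1 list 22 peaks on 9, all but TUBB2A. Of tested genes, 44.2% had a peak in SW480 and 48.8% in DLD-1, and where the Input of each line reached 10 FPKM the shares were 64.5 and 70.7%. Peaks in both lines were listed for 8 of 10 members, against 34.4% of tested genes and 55.8% of those with the higher Input. TUBA1A, TUBB2A and TUBB3 did not reach 10 FPKM in the Input of each line, so the latter share is not matched to all members. Shares with a peak rose with the Input level, and members were not matched by level. The 2 members without peaks in both lines, TUBB3 and TUBB2A, were among the lower members. TUBB2A, however, had its peak in SW480, where its Inputs were lower (7.51 and 5.05 FPKM) than in DLD-1 (18.1 and 13.3). In SW480, 3 or more peaks were listed for 3 members (TUBA1B, TUBA1C and TUBB), against 9.67% of tested genes with a peak, and in DLD-1 for 5 (TUBA1B, TUBA1C, TUBB3, TUBB6 and ACTG1), against 27.2%.

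TUBB carried the highest fold of any member in DLD-1 and the broadest peak. In DLD-1 a single peak at chr6:30722170-30725396 covered 2370 bases in 4 blocks, with a fold of 556. In SW480 the same stretch was listed as 4 peaks covering 1893 bases, with folds of 205, 99.3, 11.5 and 7.28 from the 5′ to the 3′ side, and the last 2 of these were classed in the 3′ UTR. TUBA1C carried the highest fold in SW480, 377 at chr12:49272607-49273352 classed as coding sequence, where DLD-1 had a peak with a fold of 118. Its other peaks were lower in SW480 (2.83 and 8.74) than in DLD-1 (10.2 and 47.0).

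TUBA1B carried 3 peaks in each line at the same places. Their folds were 35.6, 4.12 and 7.86 in SW480 and 166, 199 and 39.5 in DLD-1, counted from the 3′ end. The middle peak, at chr12:49128735-49129015 in SW480, differed most between the lines, by 48.3-fold, and lay within the wider DLD-1 peak. TUBA1A had 1 peak of 179 bases in each line, with folds of 12.5 and 10.2, but the peaks did not overlap and lay 685 and 269 bases from the 3′ end of the gene. Both were weakly called, with a base-10 logarithm of the false discovery rate of -2.23 in SW480 and -1.9 in DLD-1, so their places are loosely fixed. TUBA1A was also the member that the Input labelled SW480 of the acRIP table held at about 3.92 reads.

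Among the other beta-tubulins, TUBB4B had folds of 2.20 and 16.5 in SW480 and of 12.6 and 124 in DLD-1, where the last peak spanned 1130 bases up to the 3′ end. TUBB6 had folds of 9.89 and 19.8 in SW480 and of 10.2, 18.1 and 21.6 in DLD-1. TUBB2A had 1 peak in SW480, with a fold of 20.8 over 209 bases near its 3′ end. TUBB3 had 4 peaks in DLD-1, with folds of 9.44, 7.08, 33.5 and 18.1. One of these had a base-10 logarithm of the false discovery rate of -0.142, against -1.70 or lower for the others. TUBB3 was at about 8.93 reads in the acRIP-table Input labelled DLD-1.

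ACTB carried a long peak in both lines, at chr7:5527181-5528905 in SW480 (1613 bases in 2 blocks) and ending 30 bases farther in DLD-1, with folds of 176 and 92.3. It began 33 bases from the 3′ end of the gene in both lines. DLD-1 had a second ACTB peak of 330 bases with a fold of 9.40. ACTG1 had a peak in the 3′ UTR at chr17:81510001-81510626 in SW480 with a fold of 34.5, and one with the same start and a fold of 46.2 in DLD-1. Its coding peaks were lower in fold, at 1.54 in SW480 and at 11.6 and 5.90 in DLD-1.

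**Figure D5:**
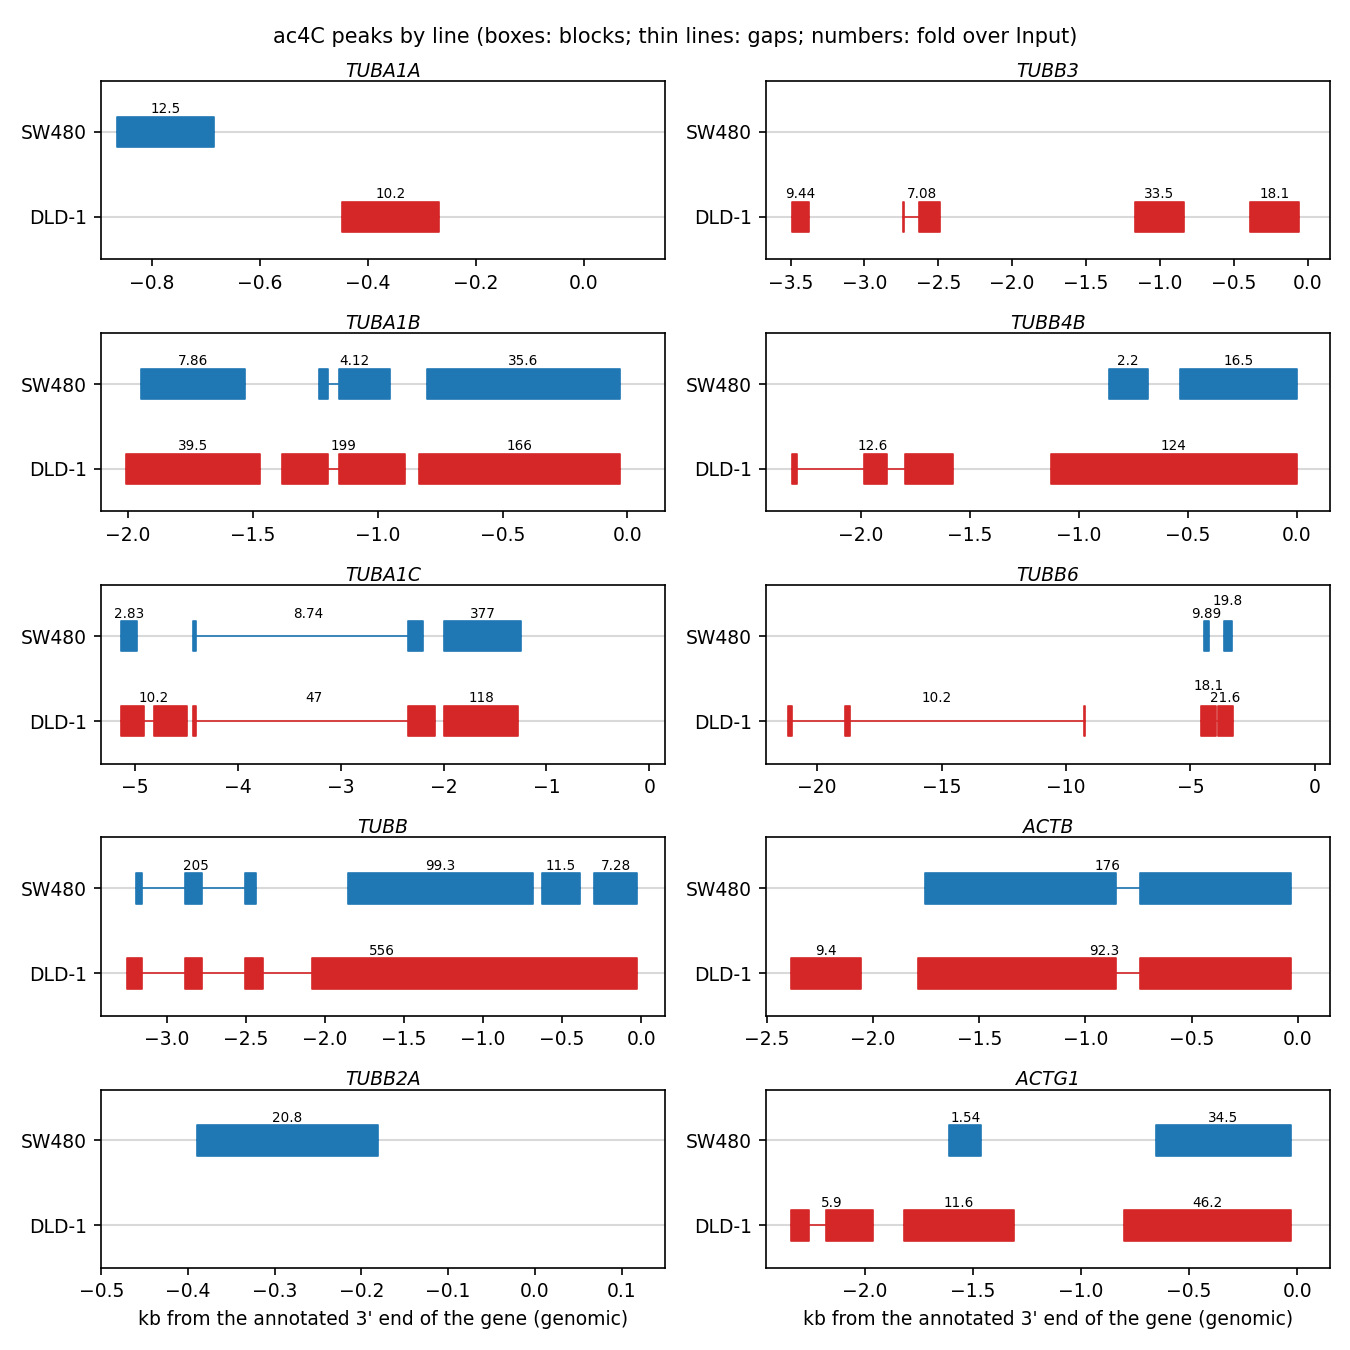
ac4C peaks of each gene in SW480 (blue) and DLD-1 (red) by genomic distance in kb from the annotated 3′ end (0 at the right; each panel has its own scale); boxes are blocks, thin lines the gaps between them, and numbers the fold over Input. The TUBA1B peaks and the long ACTB peak lie at the same places in both lines, and DLD-1 alone has a second ACTB peak. TUBB has 4 peaks in SW480 where DLD-1 has 1, and TUBA1A has peaks at different places.

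Of the 19 SW480 peaks, 17 shared at least 1 base with a DLD-1 peak on the same strand, as did 13 of the 22 DLD-1 peaks. When 50% of both peaks had to be shared, 8 pairs remained, on TUBA1B, TUBA1C, TUBB6, ACTB and ACTG1. In most shared peaks the DLD-1 fold was the higher one, and the exceptions were the last TUBA1C peak (0.313 of the SW480 fold) and the long ACTB peak (0.524). The median fold on members was 12.5 in SW480 and 19.9 in DLD-1, against 19.5 and 14.6 over all peaks of the same lists. The peaks on members were long, with a median of 241 and 477 bases against 210.0 and 211 over all peaks. In DLD-1 they covered 13447 bases of member transcripts and in SW480 8401.

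The lists also counted sites of a motif of 12 bases, CNNCNNCNNCNN. At least 1 site lay in 16 of 19 peaks on members in SW480 and in 21 of 22 in DLD-1. Of all peaks in these lists, 5357 of 9536 in SW480 and 7695 of 13964 in DLD-1 held a site. Peaks on members were longer, which leaves more room for a site, and length was not matched. The density was 0.655 and 0.744 sites per 100 bases, against 0.513 and 0.464 over all peaks. These sets differ in position, which was not matched. Only 3 member peaks in SW480 and 2 in DLD-1 were classed in the 3′ UTR, against 5052 and 5796 of all peaks. TUBB held 16 sites in both lines, ACTB 12 in SW480 and 15 in DLD-1, and TUBB2A 0 in its 1 peak. A site is a match of letters and not a measured acetylation.

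Some of these peaks were listed again under other genes. The antisense gene AC011603.2 had 2 peaks over TUBA1B in each line, of which 75.6 to 99.9% of the bases lay in the TUBA1B peaks. AC125611.3 had 1 over TUBA1C in each line, with folds of 145 and 67.8, and AL662797.1 had 1 over TUBB in each line, with folds of 7.15 and 569. On the same strand, AC092143.1 had 3 peaks over those of TUBB3 in DLD-1, although it was at 0 FPKM in all 6 columns. Reads in these stretches can belong to either gene, and for the antisense pairs the strand of the transcript cannot be told apart.

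Promoters were read from RefSeq windows of 250 bases before to 50 bases after each annotated start (GRCh38.p14). They were found for 9 of the 10 members (14 windows), all but ACTB. Short elements known from cytoskeletal promoters were searched on both strands, namely the CArG box (the site of serum response factor), CCAAT (the site of NF-Y) and TATAAA. The ACTG1 window held a CArG box, which 1.29% of 35116 windows hold, and no other member window did. CCAAT was found in at least 1 window of 7 members, 34.6% of single windows holding it, and TATAAA in TUBB2A, 11.5% of windows holding it. Some members have several windows, so the count by member cannot be set directly against the share by window. CCAAT lay in members that differed between the lines in either direction, since TUBA1A, higher in the Inputs labelled DLD-1, held it at -125 and -88. The stretches below show the element in capitals for ACTG1, TUBB2A, TUBB and TUBB4B. Counted from the start, the element begins at -94 in ACTG1, -30 in TUBB2A, -165 in TUBB, and -232, -166 and -103 in TUBB4B.
ACTG1 CArG box: gaaagatcgCCATATATGGacatgttct
TUBB2A TATAAA: gggtccccgggTATAAAagaccgagctg
TUBB CCAAT: tggctcagaggCCAATggacgcctggt
TUBB4B CCAAT 1: atttgaaacacCCAATggacggagcac
TUBB4B CCAAT 2: gctgcggctgaCCAATaaagaccaaac
TUBB4B CCAAT 3: cgggggcaaggCCAATcaaacgaggga
TUBB4B held 3 copies of CCAAT in its window and TUBB 1. A match describes these letters in the window, and binding was not measured.

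Wider cytoskeletal gene lists were set beside the members, and the highest and lowest gene of each, by the mean of both lines over Inputs of the same label, is named. For each list, counts at the 2-fold limit are given first over the Input of the same label, where 15.6 and 15.1% of all tested genes were over Input in SW480 and DLD-1 and 16.0 and 19.2% under it. They are then given over the Input of the other label, where 9.24 and 9.36% were over and 11.7 and 11.8% under. Shares under Input were lower among the 10350 protein-coding tested genes, with 949 and 1323 genes under the Input of the same label. Under the Input of the other label were 407 and 467.

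Of 6 other tubulin genes tested, 2 were over Input in SW480 and 1 in DLD-1, with 0 and 1 under it, and with the Inputs exchanged 0 were over or under in either line. TUBB2B, a close relative of TUBB2A, followed the pattern of TUBA1A and TUBB2A, with 1.63 FPKM in the Input labelled SW480, 17.0 in that labelled DLD-1, and 9.04 and 0.432 in the RIP libraries. Its log2 ratios of 1.93 and -3.65 became -0.84 and -0.87 with the Inputs exchanged. TUBA4A, an alpha-tubulin, was at 0.44 and 1.36, and at 0.88 and 0.93 with the Inputs exchanged. Of 11 other actin and actin-related genes, 4 and 3 were over Input in the respective lines and their median was 0.89 and 0.39, and with the Inputs exchanged 3 and 2 were, with a median of 0.63 and 0.49. None of them was under Input in either pairing. ACTR6, an actin-related protein of chromatin remodelling, was at 1.41 and 2.5, and at 2.21 and 1.70 with the Inputs exchanged. ACTR1B, a dynactin subunit, was at 0.37 and -0.62, which became -0.25 and -0.0031.

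Of 19 genes that fold or modify tubulin, 3 were over and 3 under Input in SW480, and 2 over and 8 under in DLD-1. With the Inputs exchanged, 2 were over and 3 under in SW480, and 2 over and 2 under in DLD-1. SVBP, the partner of the vasohibin enzymes that remove the last tyrosine of alpha-tubulin, was at 1.89 and 1.71, and at 1.27 and 2.34 with the Inputs exchanged. TBCA, a tubulin folding cofactor, was at -1.49 and -1.06, and at -1.26 and -1.29 with the Inputs exchanged. Both genes thus kept their side of the 2-fold limit over the Inputs of the RIP table. For SVBP this depended on the table. Its RIP level was 15.3 and 21.1 FPKM, against 3.38 and 5.75 in the RIP-table Inputs and 11.7 and 17.3 in the acRIP-table Inputs before scaling. Of 23 microtubule-binding and nucleation genes, 1 was over and 2 under in SW480, and 4 over and 4 under in DLD-1, and with the Inputs exchanged 1 was over and 2 under in each line. The extremes of this list were subunits of the gamma-tubulin complex, which nucleates microtubules. TUBGCP4 was at 0.87 and 1.15, and at 1.02 and 0.99 with the Inputs exchanged, and TUBGCP6 at -1.76 and -0.75, which became -1.32 and -1.19.

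On the actin side, 6 of 29 genes of monomer binding and filament dynamics were over Input in SW480 and 8 in DLD-1, with 2 and 0 under it, and with the Inputs exchanged 6 and 8 were over and 0 and 0 under. ARPC5, a subunit of the Arp2/3 complex that branches actin filaments, was at 1.83 and 1.90, and at 1.68 and 2.04 with the Inputs exchanged. CTTN, which encodes the branch stabiliser cortactin, was at -1.28 and -0.59, and at -0.95 and -0.92 with the Inputs exchanged. Of 19 crosslinking, tropomyosin and non-muscle myosin genes, 3 and 5 were over and 2 and 4 under, and with the Inputs exchanged 3 and 4 were over and 0 and 0 under. MYL12A, a regulatory light chain of non-muscle myosin, was at 1.49 and 1.67, and at 1.47 and 1.69 with the Inputs exchanged. MYH14, a heavy chain, was at -1.05 and -0.65, which became -0.72 and -0.99. Of 9 genes of the serum response factor pathway, which controls actin genes, 1 and 1 were over and 0 and 1 under, and with the Inputs exchanged 0 and 1 were over and 1 and 0 under. FHL2 was at -0.07 and 1.36, and at 0.24 and 1.05 with the Inputs exchanged, and CTGF at 1.16 and -3.24, which became -1.15 and -0.93.

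After each gene was centred on its own mean log2(FPKM + 1) over the 4 libraries of the RIP table, RAE1, RARS and SURF1 lay nearest to the median profile of the 10 members among 4403 protein-coding genes whose Input reached 10 FPKM in each line, at Euclidean distances of 0.0990, 0.101 and 0.103. Since the members differed between the lines in opposite directions, that median profile is not the profile of any member. NAT10 itself measured 21.2 and 23.0 FPKM in the Inputs and 20.8 and 14.3 in the RIP libraries, above TUBB2A in the Inputs of both lines and far below TUBB.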

How the data were processed

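The data were 6 libraries, 1 per group (Input, NAT10 RIP and acRIP of SW480 and DLD-1), grouped by title. The members and gene lists were chosen with earlier results of these data known. The authors deposited FPKM values of RIP and Input per gene, and a second table of Input values whose unit is not named and which was read as FPKM because low genes fell on the same whole-number steps. Per the submitters' processing notes, cutadapt 2.5 and HISAT2 2.1.0 were used, with GRCh38; the counting tool, use of strand and peak caller are not given in the sources used here. The authors deposited ac4C peak lists per line and pooled, with a fold ratio over Input, a p-value, its log10 and a count of motif sites. Coordinates are printed counting from 1. The authors' 3 columns of IP to Input ratios were not used.

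Ratios were computed as log2(FPKM + 1) differences with Python 3.11.15, numpy 2.4.6 and pandas 2.3.3. Reads of 23506 of 23515 genes were recovered from the FPKM steps within 0.0005, which was tested on simulated data, and gave the counting errors, which cover no biological spread. Genes were compared where the Input reached 1 FPKM in each line. The text names all 10 members, the highest and lowest gene of each list by mean ratio, the 3 nearest profiles, the 3 highest pseudogenes and NAT10. No test was made. Alternatives were a pseudocount of 0.1, other Inputs, centring, no filter, stricter peaks and 50% overlap.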

Additional observations from a re-analysis of the deposited data

Results flagged for a closer look

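For 6 members the RIP value lay on opposite sides of Input in the lines, with 1 library each, and the difference was not tested. The log2 difference of RIP over Input between SW480 and DLD-1 (SW480 minus DLD-1) was 6.48 for TUBA1A, 2.53 for TUBB2A and 1.10 for TUBB6, and it was -1.72 for TUBB, -2.76 for TUBB4B and -1.14 for ACTG1. Opposite signs were found in 43.6% of all tested genes. With the Inputs of the other label the signs differed for 2 members, TUBB6 (0.06 and -0.46) and ACTG1 (-0.09 and 0.05).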

How the results depend on the processing

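No paired analysis was possible because the labels give no replicate numbers and each group has 1 library. With the Input labels exchanged, the acRIP-table Inputs, or both, the member median in SW480 became 0.34, 0.21 and 0.49, and centring on protein-coding genes gave -0.11. In DLD-1 the acRIP-table Input of the same label gave 0.31. Members at least 2-fold over Input in DLD-1 fell to 2 with the Input labels exchanged and to 2 with the acRIP-table Inputs exchanged, and members under Input to 0 and 0. The value of TUBA1A in DLD-1 reversed to 0.092 and 0.98 under these settings, and that of TUBB in DLD-1 to -0.017 over the acRIP-table Inputs with labels exchanged. Without the filter on low values, 14.0 and 12.2% of genes were over Input in SW480 and DLD-1 and 13.4% under in SW480. Of the member peaks, 8 in SW480 and 13 in DLD-1 reached the median fold of their list, and 8 and 8 were shared at 50% overlap. The remaining 32 values of set counts and medians stayed within 1.5 times or the counting error, and of the values for single genes 70 did so and 77 moved. Of these 77, 9 changed sign from a main value within 2-fold, in TUBB, TUBB2A, TUBB3, TUBB4B and TUBB6. In SW480, exchanging the Input labels took TUBB from -0.21 to 0.62, TUBB2A from 0.96 to -0.20 and TUBB4B from -0.76 to 0.66. With the acRIP-table Inputs exchanged, TUBB2A gave -0.36, TUBB3 0.37 and TUBB4B 0.64 in SW480, and with those of the same label TUBB3 gave 0.07 in DLD-1. The line difference in Input turned from -0.25 to 0.36 for TUBB3 and from -0.29 to 0.12 for TUBB6 in the acRIP table. Beyond the constructions of these settings, the cause was not tested. Depth limits TUBA1A and TUBB3 most.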
